A study of Homo sapiens with 3 samples.

Results

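Amino acid transporters of 6 solute carrier (SLC) families were examined in unstressed HEK-293T cells, which derive from human embryonic kidney and were transformed in culture. The members were all probe sets whose gene symbol on the array was SLC1A, SLC3A, SLC7A, SLC36A, SLC38A or SLC43A followed by a number, which gave 91 of 54675 probe sets and 38 of 19775 genes. None of the 91 was listed for more than 1 gene, and 24 of the 38 genes had more than 1 probe set, so the probe sets of a gene share their target.

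Total RNA was hybridised to 3 Affymetrix U133 Plus 2.0 arrays, each from its own sample of untreated cells in DMEM with 10% fetal bovine serum. A low-seeded culture (375000 cells, RNA integrity number 9.6) and a high-seeded culture (750000 cells, RNA integrity number 10.0) were harvested 48 h past seeding, and a culture of 1000000 cells (RNA integrity number 9.5) was harvested at 24 h. All 3 carry an inserted gene for SV40 T antigen, labelled as temperature sensitive, and all are 1 cell line and not kidney tissue. Harvest time, seeding number and any handling batch cannot be told apart. Nothing in the sources says that the samples were separate passages, so p-values measure only the spread between these samples, and in bulk RNA fewer cells with a transcript and less transcript per cell give the same signal.

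The values are MAS5 signals, an intensity on a linear scale set to the same trimmed mean (500.1) on each array. Probe sets bind with different efficiency, so signals of 1 probe set cannot be set against those of another, and each was read against a background threshold of its own array. A probe set was called above background when every array gave it a signal over the 95th percentile of a reference of 272 probe sets, for olfactory and taste receptors and for genes restricted to other tissues. At 48 h the threshold was 100.8 for the low-seeded and 120.9 for the high-seeded culture, and at 24 h it was 90.5. A gene was counted when at least 1 of its probe sets passed. The kidney label was checked against 12 mature nephron markers, where 51.3% of all genes on the array were above background. Of the 12, only LRP2, the endocytic receptor megalin, passed, on 1 of its 2 probe sets (168.0 and 217.7 at 48 h, 110.8 at 24 h). Of 9 markers of other cell types, COL1A1, a collagen of fibroblasts, was the 1 that passed. Of 5 markers chosen for HEK293 cells, EYA1, NEFL and NEFM passed, and PAX2 and LHX1 did not. That share (60.0%) is near the 51.3% of all genes, so the count does not tell the label apart. On its brightest probe set PAX2 gave 85.5 and 145.9 at 48 h and 128.9 at 24 h, under the threshold in the low-seeded culture alone. LHX1 gave 25.7 and 66.0 at 48 h and 17.5 at 24 h, under it in every culture.

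Amino acids cross the plasma membrane through sodium-coupled accumulators, which load the cell with small neutral amino acids such as glutamine and alanine, and through exchangers, which trade these for essential amino acids such as leucine. Several exchangers are heteromers, in which an SLC7 light chain transports and an SLC3 heavy chain carries it to the membrane. Dividing cells use this machinery for protein and nucleotide synthesis and for signalling through mTORC1, whereas the proximal tubule of the kidney uses a partly different set at its apical and basolateral faces to recover filtered amino acids. When amino acids run short, the transcription factor ATF4 binds composite C/EBP-ATF elements and raises the transcription of several of these transporters and of amino acid synthesis enzymes.

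The members best known from dividing cells (growth-related, 10 genes) were set beside those best known from reabsorption in the tubule (renal, 8 measured genes), first by their promoters. RefSeq start-site windows (250 bases before to 50 after a start, GRCh38.p14) were found for 9 of 10 growth-related genes and 5 of 8 renal genes, in 16 and 12 windows. The core of a C/EBP-ATF element, TGATGNAA on either strand, was present in 5 of the 9 growth-related genes (SLC1A4, SLC7A1, SLC3A2, SLC1A5 and SLC38A1) and in 0 of the 5 renal genes. By window, 5 of 16 growth-related windows (31.2%) held it, against 3.62% of the 35116 windows and 4.46% of the 27305 genes in the whole table. The 5 windows are printed here because they carry these letters, and that of SLC7A9, the light chain of the apical renal exchanger, is shown beside them as a window without them. Capitals mark the element as written on the strand of the gene, so TTGCATCA and TTACATCA are matches on the opposite strand.
SLC1A4 (GRCh38.p14, chr2:64989149-64989448, plus strand): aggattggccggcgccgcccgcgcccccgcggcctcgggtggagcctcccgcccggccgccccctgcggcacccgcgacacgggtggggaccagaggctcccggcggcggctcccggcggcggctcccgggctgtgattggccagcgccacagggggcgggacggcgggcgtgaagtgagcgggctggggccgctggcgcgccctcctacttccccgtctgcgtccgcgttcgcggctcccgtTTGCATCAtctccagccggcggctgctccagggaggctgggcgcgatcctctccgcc
SLC7A1 (GRCh38.p14, chr13:29595639-29595938, minus strand): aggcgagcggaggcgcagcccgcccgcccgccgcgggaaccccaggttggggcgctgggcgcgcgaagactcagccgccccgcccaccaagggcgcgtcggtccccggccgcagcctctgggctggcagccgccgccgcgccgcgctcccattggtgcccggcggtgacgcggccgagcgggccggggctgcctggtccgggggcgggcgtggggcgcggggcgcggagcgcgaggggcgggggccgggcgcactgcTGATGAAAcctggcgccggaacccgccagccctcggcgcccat
SLC3A2 (GRCh38.p14, chr11:62881449-62881748, plus strand): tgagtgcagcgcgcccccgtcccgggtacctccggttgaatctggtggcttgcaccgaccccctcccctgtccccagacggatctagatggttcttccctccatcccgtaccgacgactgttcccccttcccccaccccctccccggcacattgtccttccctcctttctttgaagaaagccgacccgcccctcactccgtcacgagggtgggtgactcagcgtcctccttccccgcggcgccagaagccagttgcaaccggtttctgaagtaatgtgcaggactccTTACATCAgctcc
SLC1A5 (GRCh38.p14, chr19:46784765-46785064, minus strand): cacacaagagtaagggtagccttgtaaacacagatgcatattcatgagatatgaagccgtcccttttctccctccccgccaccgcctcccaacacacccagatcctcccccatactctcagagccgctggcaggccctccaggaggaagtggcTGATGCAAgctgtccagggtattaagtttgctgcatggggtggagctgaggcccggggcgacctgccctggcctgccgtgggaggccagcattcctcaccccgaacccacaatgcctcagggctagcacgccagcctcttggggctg
SLC38A1 (GRCh38.p14, chr12:46266467-46266766, minus strand): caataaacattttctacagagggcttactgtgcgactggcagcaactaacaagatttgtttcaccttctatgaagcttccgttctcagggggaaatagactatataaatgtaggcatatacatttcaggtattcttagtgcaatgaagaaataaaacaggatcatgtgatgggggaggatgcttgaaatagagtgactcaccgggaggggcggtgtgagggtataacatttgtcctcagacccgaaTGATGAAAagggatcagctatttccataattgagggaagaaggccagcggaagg
SLC7A9 (GRCh38.p14, chr19:32869718-32870017, minus strand): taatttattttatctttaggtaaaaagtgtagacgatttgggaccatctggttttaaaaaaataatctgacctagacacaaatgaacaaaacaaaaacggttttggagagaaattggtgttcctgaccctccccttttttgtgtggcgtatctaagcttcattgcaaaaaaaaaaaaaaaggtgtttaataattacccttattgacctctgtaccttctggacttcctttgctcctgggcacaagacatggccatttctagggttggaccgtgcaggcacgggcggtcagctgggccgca
The element of SLC1A4 spans the start (bases -7 to 1, where the start is base 1 and the base before it is -1), that of SLC7A1 lies at bases 8 to 15 and that of SLC3A2 at bases 38 to 45. In SLC1A5 it lies at bases -97 to -90 and in SLC38A1 at bases -4 to 4. In 2 of the 5 genes, SLC1A4 and SLC7A1, the window with the element was also the window of the gene that was richest in CpG. In SLC3A2, SLC1A5 and SLC38A1 it lay in a window poorer in CpG, with 20, 9 and 6 CpG pairs, against 30, 26 and 22 in the richest window of the same gene. The arrays do not separate transcripts by start, so which start was in use was not measured. A match of letters is a description of the window and not a binding site.

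All 10 growth-related genes were above background, against 3 of 8 renal genes (37.5%) and 51.3% of all genes on the array. The growth-related list was defined as ubiquitous exchangers and accumulators of dividing cells, and lists were chosen with earlier results of these data known. The contrast is therefore a description and not a test of the grouping. Over all members it was 23 of 38 genes (60.5%), and over the 20 members in neither group it was 10. By probe set, 22 of 27 growth-related (81.5%) and 5 of 16 renal probe sets (31.2%) passed, with 41 of 91 (45.1%) for all members and 38.1% for the whole array. Of the other 50 member probe sets, 11 passed on 1 or 2 arrays and 39 on none. Probe sets that can share sequence with another transcript were told by the suffixes _s_at and _x_at, without comparing sequences. Without them, 5 growth-related genes passed of 6 still measured, and 2 renal genes of 6, against 44.6% of all genes still measured. Requiring a majority of the probe sets of a gene left 10 growth-related genes and 1 renal gene, SLC1A1, against 38.3% of all genes. At the 99th percentile of the reference, which 1 reference gene (KRT10) decides, 7 growth-related and 0 renal genes passed (22.8% of all genes). Without KRT10 these counts were 9 and 3 (49.0% of all genes).

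**Figure D1:**
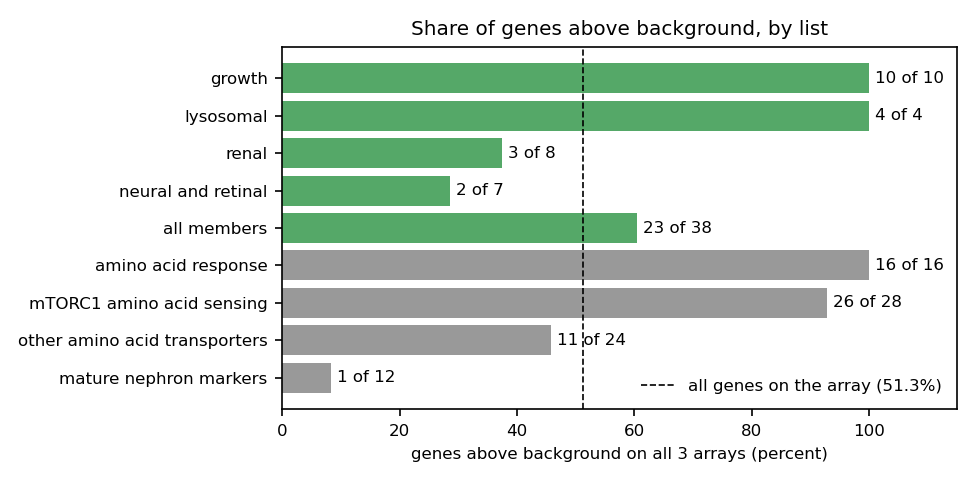
Share of genes above background on all 3 arrays (percent, bars from 0), with the counts at the bar ends, for member lists (green) and for related gene lists (grey). The growth-related and lysosomal lists reach 10 of 10 and 4 of 4, the renal list 3 of 8, and the dashed line marks the 51.3% of all genes.

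Among the growth-related accumulators, SLC38A2 (SNAT2), a sodium-coupled carrier of alanine and glutamine, gave signals of 7797 in the low-seeded and 7561 in the high-seeded 48 h culture and 8456 in the 24 h culture on its brightest probe set. Its other 2 probe sets read 6736, 7618 and 7436 and 7024, 7075 and 6450 in the same order, above background in every culture. SLC38A1 (SNAT1), a glutamine carrier of the same family, gave 5519 and 5650 at 48 h and 5092 at 24 h. Of its other 3 probe sets, 2 were above background and 1 was not (27.7 and 11.1 at 48 h, 14.5 at 24 h). SLC1A5 (ASCT2), which brings in glutamine in exchange for other neutral amino acids, gave 1508 and 1633 at 48 h and 1550 at 24 h on its only probe set. These 3 genes were 13.5 times or more the threshold of each array on their brightest probe set.

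The cationic carrier SLC7A1 (CAT1), which imports arginine and lysine, gave 5718 and 5818 at 48 h and 5482 at 24 h on its brightest probe set. Its other 4 probe sets had means from 63.4 to 507.5, and 2 of these 4 were above background. SLC7A11 (xCT), which imports cystine for glutathione synthesis and exports glutamate, gave 1067 and 1153 at 48 h and 1006 at 24 h, and its other 2 probe sets also passed on all arrays.

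Among the exchangers with a heavy chain, SLC7A5 (LAT1), the leucine exchanger, gave 2667 and 2252 at 48 h and 2768 at 24 h. SLC3A2 (4F2hc, CD98), the heavy chain that carries LAT1 and its relatives to the surface, gave 2078 and 1888 at 48 h and 2106 at 24 h. SLC7A6 (y+LAT2), which releases arginine in exchange for glutamine, gave 1633 and 1682 at 48 h and 1495 at 24 h, and all 3 of its probe sets passed. For SLC7A5, SLC3A2 and SLC7A6 all probe sets on the array are of the kind that can share sequence. A probe set listed for the SLC7A5 copies SLC7A5P1 and SLC7A5P2 read 486.5 and 432.6 at 48 h and 448.5 at 24 h, and reads of such copies could not be separated from SLC7A5 here.

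The remaining growth-related genes were SLC1A4 and SLC43A1. SLC1A4 (ASCT1), an exchanger of alanine, serine and cysteine, gave 299.0 and 320.1 at 48 h and 453.1 at 24 h on its brightest probe set, and 3 of its 5 probe sets passed. SLC43A1 (LAT3), which lets leucine and other large neutral amino acids through without exchange, gave 114.7 and 226.7 at 48 h and 380.0 at 24 h on its only probe set. In the low-seeded 48 h culture it was only 1.14 times the threshold.

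Of the renal genes, the apical glutamate carrier SLC1A1 (EAAT3), also known from neurons, gave 532.7 and 620.5 at 48 h and 438.5 at 24 h, and its second probe set passed as well (169.7 and 187.4 at 48 h, 137.0 at 24 h). It was the 1 renal gene whose probe sets all passed. The apical cystine exchanger was not above background in either chain. SLC3A1 (rBAT), its heavy chain, gave 38.9 and 56.2 at 48 h and 89.9 at 24 h on the brightest of 3 probe sets, and SLC7A9 (b0,+AT), its light chain, gave 54.2 and 79.0 at 48 h and 16.8 at 24 h. Variants of either gene cause cystinuria, in which cystine and dibasic amino acids are lost to the urine. SLC7A13 (AGT1), another light chain of rBAT in the tubule, gave 2.60 and 15.3 at 48 h and 0.903 at 24 h. Every one of these probe sets was under the threshold of every array, which gives an upper limit of the signal and not proof that the transcript is lacking. The 89.9 of SLC3A1 at 24 h was close to the 90.5 of that array, and over the 82.1 found without KRT10 in the reference.

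On the basolateral side, SLC43A2 (LAT4), an exit route for neutral amino acids, gave 283.7 and 271.6 at 48 h and 198.4 at 24 h, while its second probe set did not pass (12.4 and 24.0 at 48 h, 44.9 at 24 h). SLC7A8 (LAT2), a neutral exchanger that pairs with 4F2hc, gave 182.7 and 235.2 at 48 h and 140.3 at 24 h on its brightest probe set. A second probe set of SLC7A8 passed with the cultures in the other order (143.4 and 128.5 at 48 h, 219.3 at 24 h), and 3 more did not pass, so the probe sets of this gene disagree. SLC7A7 (y+LAT1), the exporter of cationic amino acids altered in lysinuric protein intolerance, stayed under threshold with 82.9 and 23.8 at 48 h and 75.2 at 24 h. SLC38A3 (SNAT3), which takes up glutamine for ammonia production, gave 33.7 and 73.8 at 48 h and 96.7 at 24 h, above the threshold of the 24 h array only. The apical proton-coupled carrier SLC36A2 had no probe set of its own and was not measured.

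**Figure D2:**
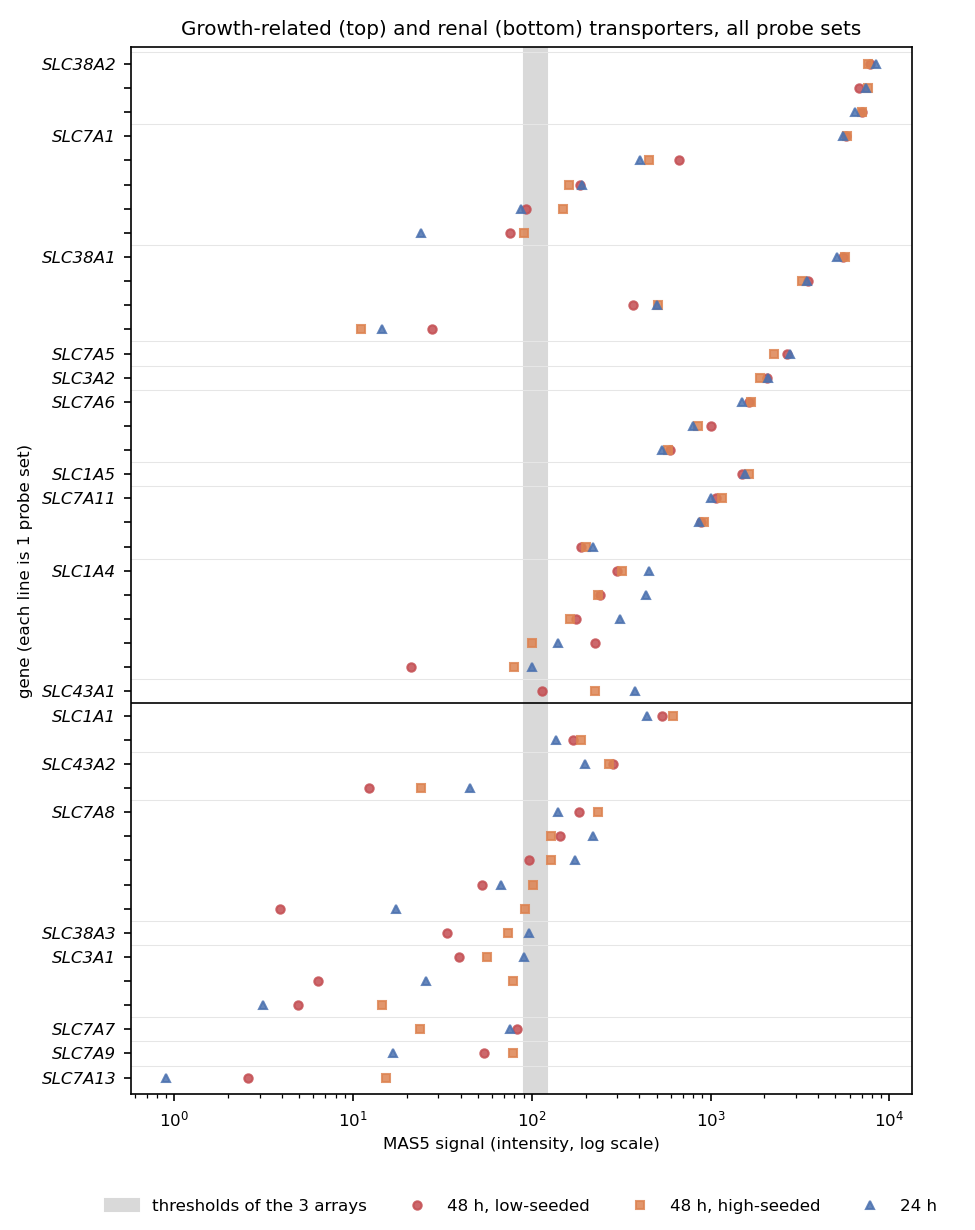
MAS5 signal (log scale) of every probe set of the 10 growth-related genes (above the black line) and the 8 renal genes (below it), with 1 symbol per culture and the range of the 3 array thresholds, 90.5 to 120.9, in grey. Each growth-related gene has a probe set to the right of the grey band in all 3 cultures, except SLC43A1, whose 114.7 in the low-seeded 48 h culture falls inside the band but over the 100.8 of its own array. SLC38A3, SLC3A1, SLC7A7, SLC7A9 and SLC7A13 have none to the right of it.

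Grouped by heteromer, the heavy chain SLC3A2 was above background with 4 of its 6 light chains (SLC7A5, SLC7A6, SLC7A8 and SLC7A11), and SLC7A7 and SLC7A10 were not. The share over all genes was 51.3%, so a count this small does not set the light chains apart. The heavy chain SLC3A1 was not above background, and neither were its 2 light chains. The pairs follow textbook partners, and protein assembly was not measured.

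All 4 lysosomal members were above background on at least 1 probe set, against 51.3% of all genes. SLC36A1 and SLC38A9 each had a second probe set under every threshold. Requiring a majority of the probe sets therefore leaves 2 of the 4, against 38.3% of all genes. SLC38A9, which senses arginine in the lysosome and signals to mTORC1, gave 1816 and 1785 at 48 h and 1691 at 24 h. SLC36A4, a high-affinity carrier of proline and tryptophan, gave 1429 and 1373 at 48 h and 1276 at 24 h. SLC36A1 (PAT1), a proton-coupled exporter of small amino acids, gave 333.0 and 353.6 at 48 h and 392.7 at 24 h. SLC38A7 (SNAT7), an exporter of glutamine from lysosomes, gave 229.1 and 272.4 at 48 h and 312.4 at 24 h, and 3 of its 4 probe sets passed. The brightest probe sets were at least 14.8 times the threshold of each array for SLC38A9, and at least 2.25 times for SLC38A7.

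Of 7 neural and retinal members, 2 were above background (28.6%, against 51.3% of all genes). SLC1A3 (EAAT1, GLAST), the glutamate carrier of astrocytes and retinal glia, gave 1783 and 1846 at 48 h and 1558 at 24 h on 1 probe set, and its second did not pass on all arrays. SLC7A3 (CAT3), a cationic carrier of the brain, gave 288.7 and 241.7 at 48 h and 238.3 at 24 h. SLC1A2, the main glutamate carrier of astrocytes, was under every threshold on all 6 of its probe sets, whose means lay between 3.45 and 33.5. SLC1A6, SLC1A7, SLC7A10 and SLC7A14 were not above background either. Among members with a start-site window, SLC1A3 was also the only one outside the growth-related group to hold TGATGNAA, in 1 of its 3 windows. Members without a window, among them SLC1A2 and SLC7A3, could not be searched.

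Of the liver pair, SLC7A2 (CAT2), a cationic carrier, gave 645.7 and 618.1 at 48 h and 419.0 at 24 h on 1 of its 3 probe sets, while SLC38A4 was under every threshold, with probe-set means of 4.80 and 16.4. Among the remaining members, SLC38A6 gave 583.9 and 526.6 at 48 h and 772.3 at 24 h. SLC38A10 gave 650.7 and 474.6 at 48 h and 635.1 at 24 h, with 2 of its 7 probe sets above background. SLC38A12, also known as TMEM104, gave 244.1 and 321.5 at 48 h and 343.5 at 24 h. SLC7A4, SLC38A5, SLC38A11 and SLC43A3 were not above background, and their brightest probe sets had means between 24.2 and 44.4.

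**Figure D3:**
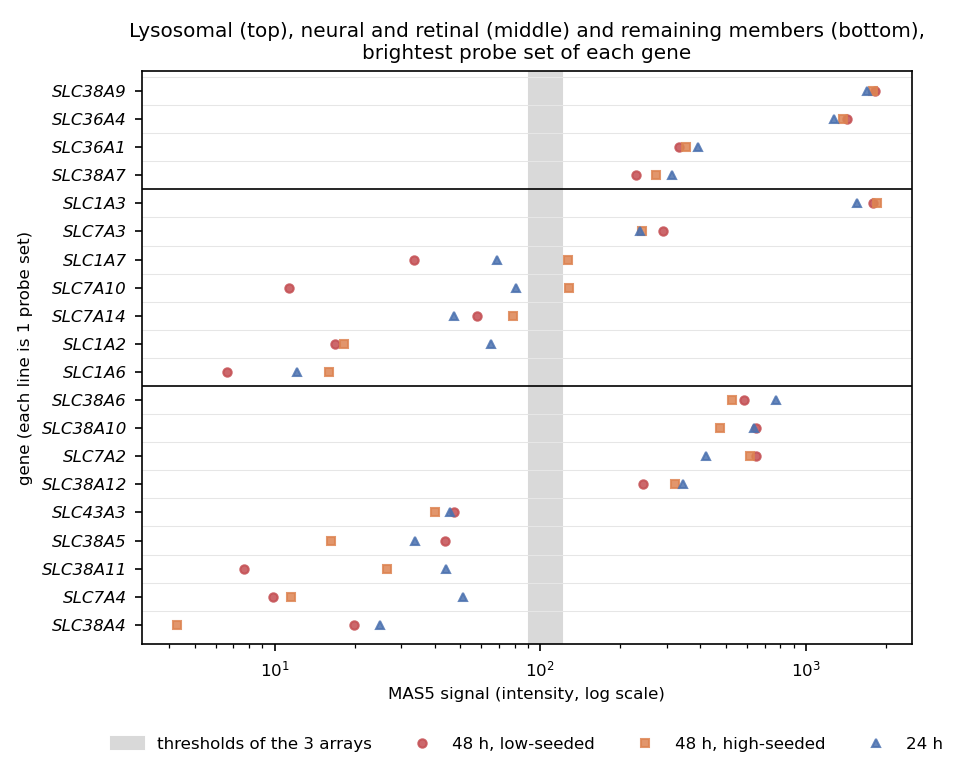
MAS5 signal (log scale) of the brightest probe set of each lysosomal (top), neural or retinal (middle) and remaining member (bottom), with 1 symbol per culture and the range of the 3 thresholds, 90.5 to 120.9, in grey. The 4 lysosomal genes, SLC1A3, SLC7A3, SLC38A6, SLC38A10, SLC7A2 and SLC38A12 lie to the right of the band in every culture.

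Members that neighbour each other could differ in their call. In the RefSeq annotation, SLC38A1, SLC38A2 and SLC38A4 follow each other on chromosome 12 with no coding gene between them, and SLC38A1 and SLC38A2 were above background while SLC38A4 was not. SLC43A3 and SLC43A1 lie on chromosome 11 with 1 coding gene between them, and only SLC43A1 passed. CpG content of the start-site windows also differed. Taking the window of most CpG for each gene, the median was 33 CpG pairs per 300 bases in growth-related genes (22 to 49), 16 in renal genes (5 to 38) and 16 in all genes. It was 29 (10 to 49) in the 20 members above background that had a window, and 8 (5 to 26) in the 9 that were not above it. Of other motifs searched on both strands, the E-box CACGTG was in 3 of 9 growth-related and 2 of 5 renal genes (8.77% of all genes). The antioxidant element TGACNNNGC was in 5 of 9 growth-related and 1 of 5 renal genes (16.1% of all genes). By window, the E-box was in 18.8% of growth-related, 16.7% of renal and 7.26% of all windows. For the antioxidant element these shares were 31.2%, 8.33% and 13.3%. The groups had more windows per gene (16 for 9 and 12 for 5) than all genes (35116 for 27305). Counts by gene and the CpG of the richest window can both rise with the number of windows. The core GTTAATNAT, bound by the kidney and liver factor HNF1, was in 0 genes of both groups (0.963% of all genes). In the member windows, 0 pairs of matches of different motifs shared bases, and no binding was measured.

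**Figure D4:**
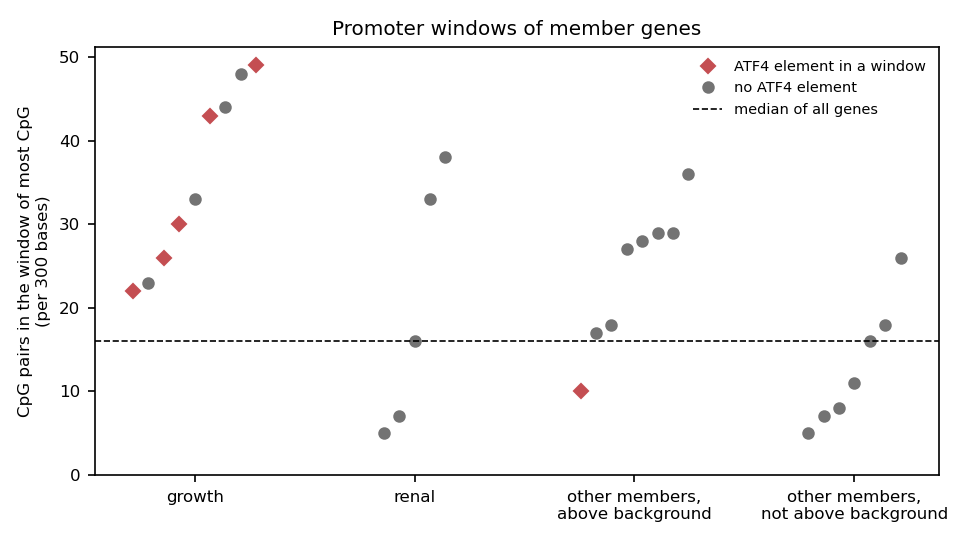
CpG pairs in the start-site window of most CpG for each member gene with a window (per 300 bases), in 4 groups, with diamonds for genes that hold the ATF4 (C/EBP-ATF) element in any window and the dashed line at the median of all genes, 16. All 9 growth-related genes lie above the line at 22 to 49, and 5 of them are diamonds.

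Related genes of amino acid supply were read in the same way. Of 24 transporters of amino acids in other families, 11 (45.8%) were above background, below the 51.3% of all genes. They included the taurine carrier SLC6A6 (638.6 and 711.0 at 48 h, 462.4 at 24 h) and the neutral amino acid carrier SLC6A15 (3294 and 3080 at 48 h, 3334 at 24 h). SLC6A18 and SLC6A19, named after their values were seen, which take up neutral amino acids at the apical face of the tubule, were not above background. SLC6A18 gave 11.7 and 30.4 at 48 h and 46.6 at 24 h. On its brightest probe set SLC6A19 gave 35.9 and 60.7 at 48 h and 145.9 at 24 h, above the threshold of the 24 h array only. All 16 genes of the amino acid response passed, among them EIF2AK4 (GCN2), the kinase that reads uncharged tRNA (659.7 and 528.6 at 48 h, 666.1 at 24 h), ATF4 (23119 and 23930 at 48 h, 22104 at 24 h) and ASNS, asparagine synthetase (10999 and 10647 at 48 h, 9986 at 24 h). Of 28 measured genes through which mTORC1 senses amino acids, 26 (92.9%) passed, with MTOR at 304.4 and 293.9 at 48 h and 339.0 at 24 h. The exceptions were RRAGB, a Rag GTPase, and DEPDC5, a subunit of the GATOR1 complex. RRAGB gave 88.1 and 187.1 at 48 h and 141.0 at 24 h, under the threshold in the low-seeded culture alone. DEPDC5 gave 139.0 and 98.3 at 48 h and 169.4 at 24 h, under it in the high-seeded culture alone.

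No member passed the test of the 48 h against the 24 h cultures. The comparison used limma on log2(signal + 20.3) over the 22757 probe sets with a mean above that of the mean threshold, which took in 45 of the 91 member probe sets and 23 genes, and 0 of the 45 reached an adjusted p of 0.05 (70 of all tested probe sets did, 0.308%). At an unadjusted p of 0.05, 5 of the 45 passed (11.1%), against 9.34% of all tested probe sets. The differences ran both ways, with 23 probe sets higher and 22 lower at 48 h (51.1% higher, 49.2% for all probe sets), and their median difference was 0.018, against -0.005 for all. The 24 h signal lay outside the 48 h pair for 36 of the 45 (80.0%), and for 70.5% of all tested probe sets. The fit has 1 residual degree of freedom, from the 48 h pair, whose cultures were seeded unequally. Its variances draw mostly on the trend over all tested probe sets (prior degrees of freedom 16.8). It takes the lone 24 h array to vary like the 48 h pair, so a p that misses the threshold does not show equal levels.

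The largest member differences were below 0, in growth-related genes. SLC43A1 was 1.13 lower at 48 h on the log2 scale (-1.13, 95% interval -1.96 to -0.31, limma adjusted p = 0.329), with both 48 h signals below that at 24 h but 226.7 and 114.7 far apart from each other. Its difference was -0.70 without the low-seeded and -1.57 without the high-seeded 48 h array, so 1 array decides its size. SLC1A4 was lower at 48 h on 3 of its 4 tested probe sets (-0.82 ± 0.30 SE, -0.81 ± 0.36 SE and -0.52 ± 0.27 SE, limma adjusted p of 0.371, 0.483 and 0.589), and the fourth gave 0.11 ± 0.47 SE. On the most changed of these, its 48 h signals of 239.5 and 234.3 lay close together and under the 435.0 at 24 h. All 4 are of the kind that can share sequence. The only SLC1A4 probe set not of that kind was too low to be tested (21.1 and 79.4 at 48 h, 100.9 at 24 h). In the other direction, SLC7A2 was higher at 48 h by 0.57 ± 0.21 SE (limma adjusted p = 0.382) on 1 probe set, while its other tested probe set gave -0.23 ± 0.45 SE. SLC38A6 was lower by a difference of -0.46 ± 0.20 SE (limma adjusted p = 0.478). These 4 genes hold the 5 probe sets that passed without adjustment.

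Among renal members, SLC43A2 differed by 0.45 (95% interval -0.24 to 1.13) and SLC1A1 by 0.38 (-0.09 to 0.84) on their brightest probe sets. SLC7A8 differed by 0.50 (-0.31 to 1.31) on its brightest probe set and by -0.62 (-1.47 to 0.23) on its second, so no direction can be given for this gene. For the brightest probe sets of several growth-related genes, the interval was -0.34 to 0.06 for SLC38A2, -0.07 to 0.34 for SLC38A1, -0.13 to 0.28 for SLC7A1, -0.43 to 0.08 for SLC7A5 and -0.34 to 0.17 for SLC3A2. These intervals rest on the mean-variance trend and the scaling. Without the trend that of SLC38A2 was -0.58 to 0.30 and that of SLC7A5 -0.72 to 0.38, and with arrays scaled to equal medians they were -0.64 to 0.25 and -0.77 to 0.31. Of the other SLC7A1 probe sets, 1 gave 0.43 (-0.10 to 0.95) and another -0.13 (-0.93 to 0.68).

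**Figure D5:**
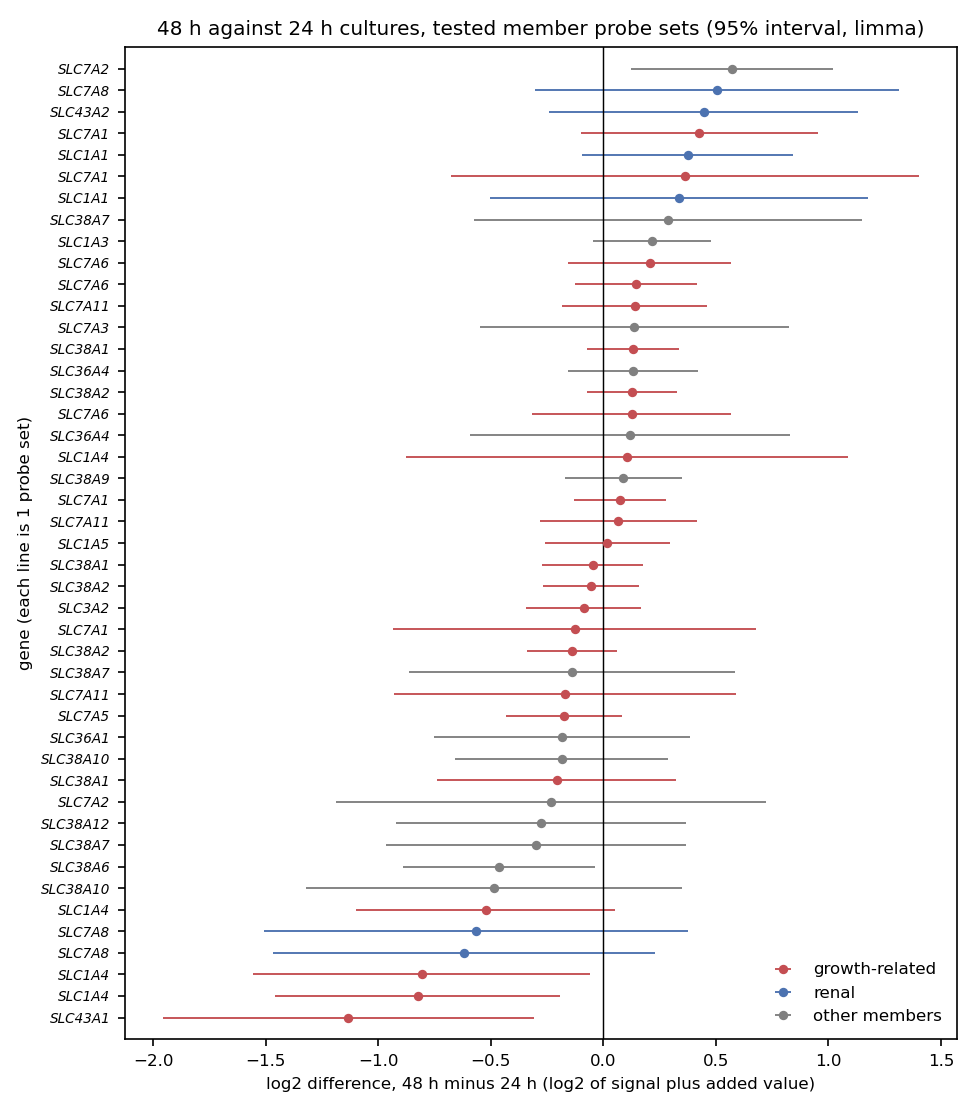
Difference between the 48 h and the 24 h cultures (log2 of signal plus 20.3, 48 h minus 24 h) with its 95% interval from limma for the 45 tested member probe sets, ordered by size and coloured by group. The points run from -1.13 (SLC43A1) to 0.57 (SLC7A2), and none reached an adjusted p of 0.05.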

How the data were processed

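Total RNA of 3 HEK-293T cultures was hybridised by the authors to U133 Plus 2.0 arrays, and the deposited values are MAS5 signals, an intensity on a linear scale (GCOS 1.0 in the submitters' processing notes), with a mean of 500.1 after trimming 2% at each end. The absent/present calls were not used, and precision is set by how few arrays there are. Of the probe sets, 41097 carry 1 gene in the platform annotation, 1801 several and 11777 none, and symbols follow GRCh38.p14 through the gene ID.

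From these signals, probe sets above background were counted against 272 reference probe sets of 183 genes. Of these, 4 were above background themselves, 3 of them of KRT10. limma 3.58.1 in R 4.3.3 (empirical Bayes with a mean-variance trend, Benjamini-Hochberg adjustment over all tested probe sets) was run on log2(signal + 20.3), with the reference's median signal as the added value, which understates changes of low signals. Promoter windows were RefSeq's. Named were all growth-related and renal genes, every other member above background and the 4 largest differences in each direction, with examples from other lists. SLC6A18 and SLC6A19 were added after their values were seen. Members and lists were chosen with earlier results of these data known.

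Alternatives were other percentiles, references and numbers of arrays, other added values, no filter, other scalings, no trend, no probe sets that can share sequence, and each array left out.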

Additional observations from a re-analysis of the deposited data

How the results depend on the processing

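The counts of 23 member, 10 growth-related and 3 renal genes did not change with the 90th percentile, receptors alone or tissue-restricted genes alone as reference, 2 arrays sufficing, quantile normalization or any array left out (ranges 23 to 23, 10 to 10 and 3 to 3). At the 99th percentile, where KRT10 sets the threshold at 876.9 to 1169, they were 10, 7 and 0, with 22.8% of all genes. Without KRT10 in the reference, an alternative chosen after seeing the data, the 99th percentile gave 22, 9 and 3 genes, with SLC43A1 lost, and the 95th gave 23, 10 and 3. Without probe sets that can share sequence, 16 of 29 members and 5 of 6 growth-related genes passed, with 44.6% of all genes still measured. SLC3A2, SLC7A5, SLC7A6 and SLC38A2 have no other probe set, and SLC1A4 did not pass. Requiring a majority of the probe sets left 16 of 38 members and 1 renal gene, with 38.3% of all genes. The renal SLC7A8 and SLC43A2, the lysosomal SLC36A1 and SLC38A9, and SLC1A3, SLC7A2 and SLC38A10 were lost.

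Between 48 h and 24 h, no member was called by limma under any alternative (3 to 7 at an unadjusted p of 0.05). Over all probe sets, 70 were called (17 higher and 53 lower at 48 h), 13 with arrays scaled to equal medians (6 higher and 7 lower) and 0 without the trend (1370 at an unadjusted p of 0.05). The cause was not tested. The median member difference was 0.00996 to 0.0189 with a 48 h array left out. It was -0.0344 with equal medians, where that of all probe sets was -0.06, and 0.0892 without probe sets that can share sequence (15 higher and 10 lower at 48 h), where that of all probe sets was -0.01. No paired analysis was possible, because the labels do not pair the lone 24 h array with either 48 h array. For low probe sets the spread between arrays limits what can be seen, with a median SD of the log2 signal of 0.97 for members not above background and 0.17 for those above it.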

Other observations

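Transcripts next to or copied from members were measured by probe sets outside the member rule. The antisense transcripts SLC38A2-AS1, SLC38A4-AS1, SLC7A11-AS1 and SLC7A14-AS1 were not above background. SLC38A2-AS1 read 55.1 and 53.9 at 48 h and 26.1 at 24 h on its brighter probe set. SLC7A6OS, a gene next to SLC7A6 that is not a transporter, was above background on both of its probe sets, with 467.1 and 560.7 at 48 h and 593.7 at 24 h on the brighter. Probe sets shared by SLC7A5P1 and other repeat copies on the array gave mixed calls.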
